A study of Homo sapiens with 132 samples.

Results

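Hyaluronan is a long sugar polymer of the extracellular matrix, and the 8 genes described here make it, bind it or break it down. They were HAS1, HAS2 and HAS3, which encode the hyaluronan synthases, CD44, which encodes the main hyaluronan receptor of the cell surface, HYAL1, HYAL2 and HYAL3 of the hyaluronidase family, and CEMIP, whose protein is needed for hyaluronan breakdown in several cell types. The members were the rows of the count files whose Ensembl identifier maps to these symbols, 8 of 65217 identifiers. All 8 had counts in some library, but HAS1 and HAS2 were close to the limit of detection in part of the cell lines.

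Each synthase sits in the plasma membrane, joins alternating units of glucuronic acid and N-acetylglucosamine taken from UDP-sugars in the cytosol, and pushes the growing chain out of the cell. CD44 binds hyaluronan with its extracellular part, is linked to the actin skeleton through ezrin, radixin and moesin, and is widely used as a marker of tumour cells with stem-like properties, also in the stomach. HYAL2 is anchored at the cell surface and cuts long chains, HYAL1 is the lysosomal enzyme that cuts the fragments further, HYAL3 is a related protein with little activity of its own, and CEMIP serves a breakdown route that does not need CD44 or the hyaluronidases.

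RNA was sequenced from the gastric cancer lines Hs746T, MKN1, MKN7 and NCI-N87 in 44 conditions, with 3 biological replicates, each 1 library, for every condition. Cells were left untreated or received EGF (5 ng/ml), the EGFR antibody cetuximab (1 µg/ml), EGF together with cetuximab, the HER2 antibody trastuzumab (5 µg/ml), the irreversible EGFR, HER2 and HER4 kinase inhibitor afatinib (0.5 µM), or trastuzumab together with afatinib, for 4 h or 24 h. MKN1 and Hs746T received all treatments, and MKN7 and NCI-N87 received trastuzumab, afatinib and their combination. Every group carried its line's own alterations and grew in medium with FCS, RPMI for MKN1, MKN7 and NCI-N87 and DMEM for Hs746T. In comparisons with Hs746T the line and its medium therefore cannot be told apart. Each line stems from the tumour of 1 patient. All control libraries are labelled untreated and none is labelled as solvent (DMSO), so afatinib and its solvent cannot be told apart here. The epithelial marker CDH1 had a median of 243 CPM (counts scaled to library size) in MKN7 and 256 CPM in NCI-N87. Its median was 2.0 CPM in MKN1 and 0.785 CPM in Hs746T. EPCAM had the same split, with 626, 496, 25.1 and 35.5 CPM in the same order of lines. The keratin genes KRT8, KRT18 and KRT19 did not. Their medians were 11066, 2984 and 4166 CPM in MKN1 and 342, 150 and 26.4 CPM in Hs746T. The leukocyte marker PTPRC did not exceed 0.664 CPM in any library. The endothelial marker PECAM1 had a median of 155 CPM in Hs746T and 9.82 CPM in MKN1. The fibroblast markers were split. COL1A1 and COL1A2 had medians of 523 and 164 CPM in Hs746T, whereas DCN and LUM had 0.107 and 0.120 CPM there. In the other lines COL1A1 had medians of 13.5 to 17.4 CPM, and COL1A2 did not exceed 1.33 CPM. The mesenchymal markers VIM, ZEB1, CDH2 and FN1 had medians of 1595, 57.2, 79.8 and 2089 CPM in Hs746T. In MKN1 these were 559, 34.9, 0.399 and 677 CPM, in MKN7 3.74, 2.68, 0.657 and 624 CPM, and in NCI-N87 4.17, 8.28, 0.209 and 237 CPM.

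Total counts ranged from 25832557 to 69434151 per library, with a median of 50725776. Levels are given as CPM normalised with TMM factors over all libraries. A count of 3, the upper limit that a count of 0 allows, was worth 0.0432 CPM in the deepest and 0.116 CPM in the shallowest library. Differences are log2FC from edgeR's quasi-likelihood test with Benjamini-Hochberg adjustment over all genes tested. The main fit, from which calls come unless stated otherwise, had no replicate block. The SE of a log2FC is its absolute value divided by the square root of the quasi-likelihood F value. A gene is called changed (risen or fallen) at an adjusted p below 0.05, and regulated where its absolute log2FC also exceeded 1. Where same-numbered replicates of the compared groups deviated together, the value with the replicate number as a block is given for the members described when it moved the call.

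Promoter sequence is shown for CEMIP and HAS3, which had the largest falls after afatinib of a breakdown gene and of a synthase with an entry in the table used. The table of RefSeq promoters (GRCh38.p14) held 8 windows for 7 of the 8 members, of which HYAL3 had 2, and HAS2 was not among them. The 250 bases before the start site were searched on both strands for the EGR motif GCGNGGGCG, the SP motif GGGCGG, the TEAD motif GGAATG and the AP-1 motif TGANTCA, and capitals mark the matches. The CEMIP window lies on chromosome 15 at chr15:80779120-80779369, plus strand, and its last bases fall in the first CEMIP exon of GENCODE. The HAS3 window lies on chromosome 16 at chr16:69107290-69107539, plus strand, inside the longest annotated extent of HAS3 but in no GENCODE exon.
CEMIP: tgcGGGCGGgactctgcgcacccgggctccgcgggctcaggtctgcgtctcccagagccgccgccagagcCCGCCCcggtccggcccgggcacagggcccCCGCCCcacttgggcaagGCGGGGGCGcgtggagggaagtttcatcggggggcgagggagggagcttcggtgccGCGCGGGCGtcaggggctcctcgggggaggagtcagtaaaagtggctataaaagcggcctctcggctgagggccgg
HAS3: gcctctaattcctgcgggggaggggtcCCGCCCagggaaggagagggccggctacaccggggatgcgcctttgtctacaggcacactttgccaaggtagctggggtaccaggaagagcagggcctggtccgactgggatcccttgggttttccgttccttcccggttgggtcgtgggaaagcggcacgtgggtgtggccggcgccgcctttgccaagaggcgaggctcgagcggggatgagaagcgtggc

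The CEMIP window held 2 EGR matches, at -132 to -124 and at -76 to -68 from the start site, and 3 SP matches. The HAS3 window held 1 SP match and none of the other motifs. Over the 8 member windows the EGR motif was found in 2 (CEMIP and HAS1, where it overlapped an SP match), the TEAD motif in 2 (HYAL2 and 1 window of HYAL3), the SP motif in 7 and the AP-1 motif in 0. Of all 35116 windows of the table, 8.41% held the EGR motif, 11.9% the TEAD motif, 42.6% the SP motif and 6.57% the AP-1 motif. A match describes letters in the window and not a bound site.

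The members lie on 6 chromosomes. HYAL3 (chr3:50292831-50299468), HYAL1 (chr3:50299889-50312381) and HYAL2 (chr3:50317790-50322906) are neighbours on the minus strand of chromosome 3, HAS2 is at chr8:121612116-121641390 and HAS1 at chr19:51713112-51723994, both on the minus strand, and HAS3 at chr16:69105564-69118719, CD44 at chr11:35138870-35232402 and CEMIP at chr15:80779343-80951776 are on the plus strand (GRCh38, GENCODE 29). Exons of HYAL2 share 509 bases with TUSC2 and exons of HYAL3 share 248 bases with NAA80 and 43 bases with IFRD2 on the same strand. HAS2 shares 201 exon bases with its antisense RNA HAS2-AS1, HAS3 shares 365 with CHTF8 and CEMIP shares 224 with MESD on the opposite strand. The kit kept strand, but whether the counting used it is not given in the sources used here, so the part of these counts that came from the overlapping gene is not known. The overlapping genes on the opposite strand had a median over the libraries of 5032.5 counts for CHTF8 against 172.5 for HAS3, of 3783.5 for MESD against 516.5 for CEMIP and of 10 for HAS2-AS1 against 57 for HAS2. On the same strand the medians were 2109.5 counts for TUSC2 against 1421 for HYAL2 and 6429 for IFRD2 against 250 for HYAL3.

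In untreated cells the receptor was by far the most abundant member transcript. Per kilobase of exon, CD44 ranked highest and HYAL2 next in all 4 lines, with medians over the 6 untreated libraries of 131 and 6.60 CPM per kb in MKN1, 95.7 and 5.92 in MKN7, 62.4 and 9.77 in Hs746T, and 13.8 and 6.0 in NCI-N87. HAS2 came next in Hs746T at 3.30 CPM per kb and stood below CEMIP in NCI-N87 at 3.56 CPM per kb, whereas it was last of the 8 in MKN7 at 0.0125 CPM per kb. CEMIP stood at 5.72 CPM per kb in NCI-N87 and 0.302 CPM per kb in Hs746T. HAS1 had the lowest median in MKN1, NCI-N87 and Hs746T. Coding length in place of exon length exchanged only the neighbouring ranks of HYAL1 and HAS3 in NCI-N87.

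**Figure D1:**
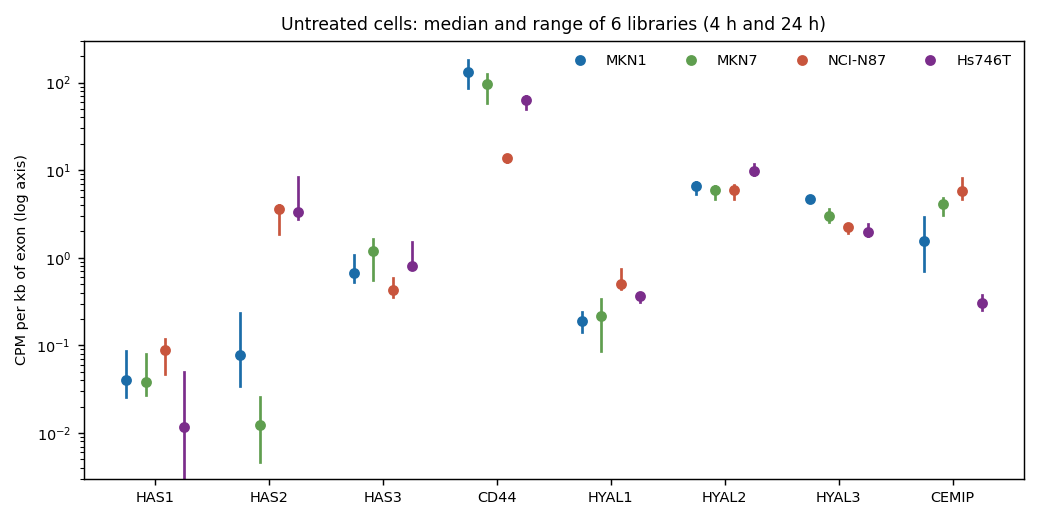
Level of the 8 members in untreated cells as CPM per kb of exon (log axis), with points for the median and bars for the range of 6 untreated libraries of each line (3 at 4 h and 3 at 24 h), a bar that meets the lower edge standing for a library with 0 counts. CD44 is the highest member in each line, and HAS2 spans from 0.0125 in MKN7 to 3.56 in NCI-N87.

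HAS2 spanned the widest range of mean levels between the untreated lines. It had 30.1, 14.1 and 11.6 CPM in Hs746T at 4 h and 12.2, 16.6 and 7.87 CPM in NCI-N87. It had 0.695, 0.343 and 0.977 CPM in MKN1 and 0.108, 0.0442 and 0.0700 CPM (4, 2 and 3 counts) in MKN7. The Hs746T and NCI-N87 libraries overlapped, and all of them were above all MKN1 libraries, which were above all MKN7 libraries. MKN1 against NCI-N87 gave a log2FC of -4.19 (SE 0.52, adjusted p = 9.47e-12) at 4 h and -5.99 (SE 0.59, adjusted p = 3.95e-16) at 24 h, and MKN1 against Hs746T gave -4.79 (SE 0.52, adjusted p = 5.92e-14) and -6.42 (SE 0.59, adjusted p = 1.55e-17). COL1A1 and COL1A2, genes of fibroblasts and mesenchymal cells, were high like HAS2 in Hs746T. In NCI-N87 they did not exceed 25.8 and 0.685 CPM. The medians of the mesenchymal markers VIM, ZEB1, CDH2 and FN1 were likewise higher in Hs746T than in NCI-N87. The other fibroblast markers, DCN and LUM, had medians of 0.107 and 0.120 CPM in Hs746T. LUM had a median of 81.4 CPM in MKN1, where HAS2 was low. The part of these genes in the line difference was not tested. Over all pairs of untreated lines at both times, the members were changed in 68 of 96 pairs of member and comparison and regulated in 42, while among all genes the background was 66.5% changed and 43.4% regulated, so the members' share was near that of all genes.

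The receptor was graded in another order. CD44 had 1809, 1567 and 1770 CPM in MKN1 at 4 h, 1034, 1112 and 1247 CPM in MKN7, 710, 664 and 666 CPM in Hs746T and 151, 150 and 125 CPM in NCI-N87. No neighbours in this order overlapped at 4 h, while at 24 h MKN1 overlapped MKN7 and MKN7 overlapped Hs746T. NCI-N87 was lower than MKN1 by a log2FC of 3.59 (SE 0.11, adjusted p = 5.1e-50) at 4 h. CEMIP was lowest in Hs746T at 2.26, 2.35 and 2.07 CPM and highest in NCI-N87 at 38.9, 40.6 and 35.5 CPM, which overlapped MKN7 at 35.7, 36.5 and 23.6 CPM. HYAL2 was highest in Hs746T (mean 41.5 ± 1.33 CPM, SD, n = 3), HYAL3 in MKN1 (9.37 ± 0.515 CPM) and HYAL1 in NCI-N87 (1.52 ± 0.130 CPM), each above the next line without overlap at 4 h. HAS3 was the most even of the synthases, with means from 2.39 CPM in NCI-N87 to 7.09 CPM in MKN7.

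Over 48 treatment contrasts the members gave 352 tested pairs of member and contrast, of which 58 were changed and 27 regulated. Among all gene and contrast pairs the background was 13.0% changed and 3.67% regulated. The contrasts of a line share libraries, so their calls are not independent of each other. The members were chosen with earlier results of these data known, so their shares beside the background are a description only. The pairs were spread unevenly over the lines. In MKN1, 14 of 128 were changed and 5 regulated, against a background of 10.4% and 1.87%. In MKN7, 17 of 48 were changed and 9 regulated, against 26.7% and 5.9%. In NCI-N87, 27 of 64 were changed and 13 regulated, against 30.5% and 12.5%. In Hs746T, edgeR changed 0 of 112 pairs, with 4 at an unadjusted p below 0.05 and 0 by DESeq2, and 0.0% of all pairs. With the replicate block the counts changed and regulated became 36 and 9 in MKN1 (background 20.4% and 2.31%), 32 and 9 in MKN7 (37.9% and 6.47%) and 9 and 0 in Hs746T (1.38% and 0.0271%), while NCI-N87 had 34 and 13 (39.6% and 13.2%).

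In 1 direction, the background over all gene and contrast pairs was 6.39% risen and 6.61% fallen, with 2.28% regulated up and 1.39% regulated down. By member, HAS2 was regulated in 10 of 40 contrasts tested, 3 up and 7 down, and HAS3 in 7 of 48, 1 up and 6 down. HAS1 was regulated in 3 of 24, all up and all in NCI-N87 contrasts with afatinib that share libraries. The 6 HAS3 falls were likewise all in MKN7 contrasts with afatinib. HAS1 was tested only in MKN1 and NCI-N87 and HAS2 not in MKN7, while the background covers all lines. CD44 was changed in 15 of 48, with 3 rises and 12 falls, of which 3 falls were regulated. CEMIP was changed in 7 of 48, with 1 rise and 6 falls, of which 4 falls were regulated. HYAL2 fell in 10 of 48 and HYAL3 in 6 of 48, with no regulated call for either. HYAL1 was changed in 0 of 48 by edgeR, with 3 at an unadjusted p below 0.05, 0 by DESeq2 and 4 with the replicate block.

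**Figure D2:**
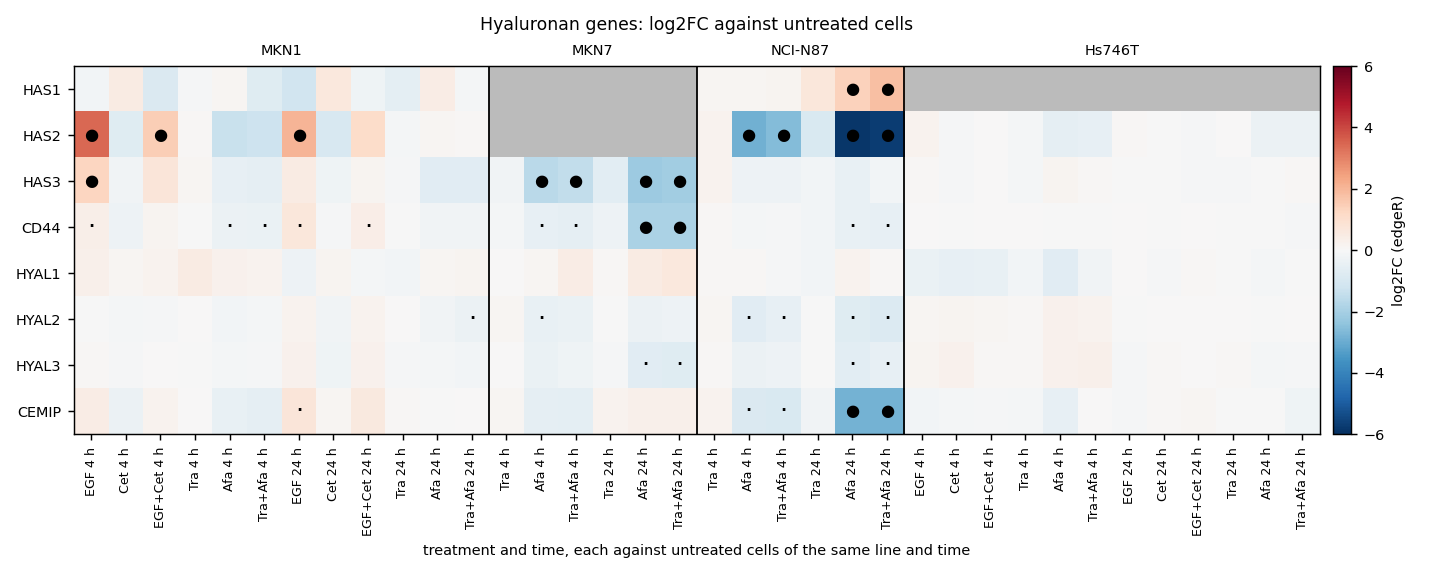
The log2FC of each member (rows) for each treatment against untreated (columns) in 4 lines at 4 h and 24 h. Filled circles mark regulated and small dots changed members, and grey cells were not tested. The extremes are HAS2 in MKN1 after EGF (3.46) and HAS2 in NCI-N87 after afatinib (-5.84), and the Hs746T columns hold no mark. Marks are from the fit without the replicate block. With the block, 9 of 112 pairs over all treatment contrasts of Hs746T were changed.

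EGF raised the synthases HAS2 and HAS3 and the receptor CD44 in MKN1 within 4 h. HAS2 had 0.695, 0.343 and 0.977 CPM in untreated cells (36, 14 and 37 counts) and 10.7, 4.73 and 6.58 CPM after EGF. All 3 EGF libraries were above all untreated libraries, and the log2FC was 3.46 (SE 0.33, adjusted p = 3.84e-09), an 11-fold rise. HAS3 rose from 3.86, 3.52 and 5.75 CPM to 8.85, 7.33 and 15.4 CPM, without overlap (log2FC 1.27, SE 0.27, adjusted p = 0.00168), and this call was lost without replicate 1 (1.30, adjusted p = 0.0890) and when only the compared groups were fitted (adjusted p = 0.0526). CD44 rose from 1809, 1567 and 1770 CPM to 2373, 2021 and 2151 CPM, a small step on a high level (log2FC 0.36, adjusted p = 0.0114), which passed with the replicate block (adjusted p = 4.21e-06) but not without replicate 1 or replicate 3 (adjusted p = 0.229 and 0.153), with only the compared groups fitted (0.0821) or with scaling by library size alone (0.0899). At this time 6.82% of 19815 genes were changed and 1.48% regulated, and 3 of 8 members were changed and 2 regulated. CEMIP gave 0.43 (adjusted p = 0.357, and 0.00108 with the replicate block), higher in 3 of 3 replicates, and HYAL2 and HYAL3 had log2FC within 0.1 of 0.

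Cetuximab given with EGF left HAS2 between the untreated and the EGF level. The EGF+cetuximab libraries had 2.87, 1.35 and 1.35 CPM at 4 h, below all EGF libraries and above all untreated libraries. HAS2 was lower than with EGF alone by a log2FC of 1.97 (SE 0.30, adjusted p = 0.000138), the single member changed without the block in a contrast where 0.701% of the genes were changed and 0.126% regulated. It stayed higher than in untreated cells by 1.49 (SE 0.34, adjusted p = 0.0214), again as the single member in this fit, where 0.717% of the genes were changed and 0.116% regulated. The first of these calls was lost when only the compared groups were fitted (adjusted p = 0.124), and the other was lost in that fit (0.474), without replicate 1 (1.05, 0.926) and without replicate 2 (1.36, 0.155). With the replicate block CD44 was also called higher with EGF+cetuximab than in untreated cells (0.18, adjusted p = 0.0397). HAS3 had 6.61, 4.65 and 10.5 CPM and overlapped both the untreated and the EGF libraries, and neither contrast passed. Cetuximab alone gave 0.399, 0.531 and 0.307 CPM of HAS2, overlapping the untreated libraries, and its only member calls at 4 h appeared with the replicate block, in CD44 (-0.30, adjusted p = 0.00024) and CEMIP (-0.35, adjusted p = 0.0220).

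**Figure D3:**
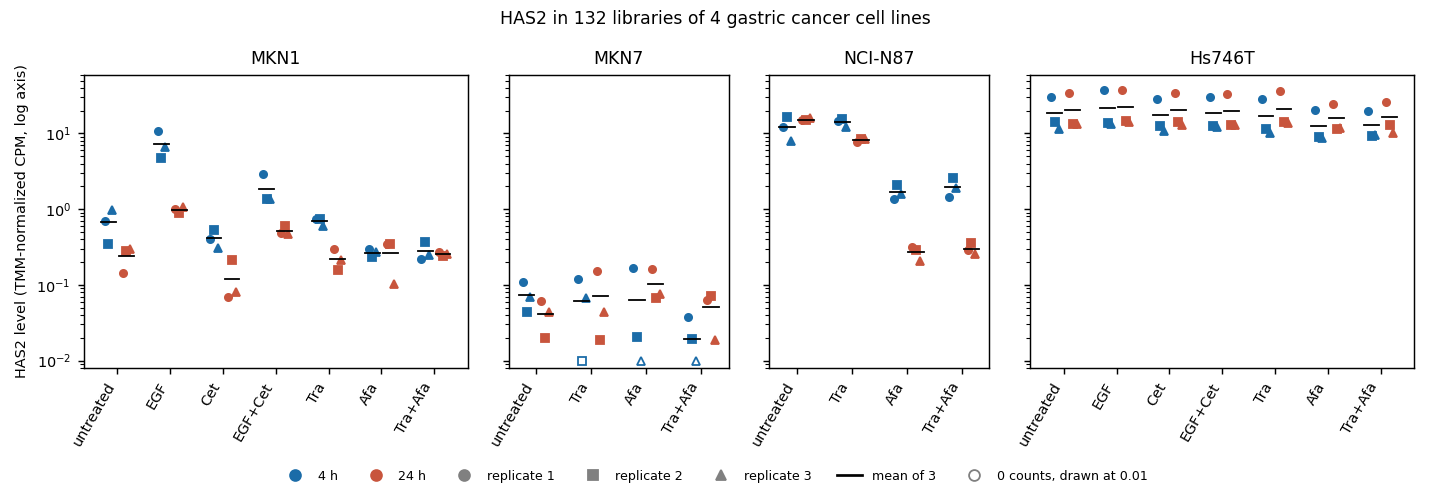
HAS2 level in each library as CPM (log axis) by condition in 4 panels, 1 per line, with points for the 3 replicates and a black line for their mean. Libraries with a count of 0 are drawn open at 0.01. MKN1 rises with EGF to a mean of 7.33 CPM at 4 h, NCI-N87 falls with afatinib to a mean of 0.269 CPM at 24 h, and replicate 1 of Hs746T stands above the other two in every condition.

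At 24 h the HAS2 level of MKN1 was lower in untreated and in EGF-treated cells, and the EGF effect persisted. Untreated libraries had 0.144, 0.281 and 0.301 CPM (8, 14 and 14 counts), and EGF libraries had 0.996, 0.879 and 1.08 CPM. The groups did not overlap, and the log2FC was 2.05 (SE 0.40, adjusted p = 0.000136). EGF+cetuximab gave 0.483, 0.607 and 0.466 CPM, above all untreated libraries (log2FC 1.12, adjusted p = 0.0644, 0.0319 with the replicate block and 0.0385 with DESeq2). CD44 rose from 994, 863 and 1063 CPM to 1576, 1476 and 1521 CPM with EGF (log2FC 0.67, SE 0.09, adjusted p = 1e-06) and to 1351, 1192 and 1282 CPM with EGF+cetuximab (0.39, adjusted p = 0.00253, lost without replicate 1 at 0.123, in a contrast with 18.6% of the genes changed). CEMIP rose from 7.93, 5.41 and 8.01 CPM to 14.8, 9.60 and 10.0 CPM (0.71, SE 0.24, adjusted p = 0.0202, lost without replicate 2 at 0.140 and with library size alone at 0.0753). In all, 3 of 8 members were changed with EGF at 24 h and 1 regulated, when 35.8% of all genes were changed and 8.36% regulated, and HAS3 at 3.92, 3.67 and 5.32 CPM against 2.96, 2.79 and 3.57 CPM did not pass. The replicate block added small EGF calls for HYAL2 (0.20, adjusted p = 0.0364) and HYAL3 (0.26, adjusted p = 0.0191), and it called CD44 lower with EGF+cetuximab than with EGF alone (-0.27, adjusted p = 0.000763, against 0.217 without it).

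The same dose of EGF was given to Hs746T, whose HAS2 level was high before treatment. The EGF libraries had 37.0, 13.7 and 13.4 CPM at 4 h against 30.1, 14.1 and 11.6 CPM in untreated cells, so the groups overlapped. The EGF effect on HAS2 was larger in MKN1 by a log2FC of 3.25 at 4 h (SE 0.66, adjusted p = 0.00108), in a contrast where 0.92% of 22832 genes were changed and 0.486% regulated. This call was lost without replicate 2 (3.11, adjusted p = 0.168) and when only the compared groups were fitted (3.24, adjusted p = 0.0853). At 24 h the difference was 1.94 (adjusted p = 0.112, and 2.92e-06 with the replicate block). CD44 also gave a larger EGF effect in MKN1 at 24 h (0.62, SE 0.14, adjusted p = 0.00148, with 7.92% of the genes changed), a call that was lost without replicate 2 (0.55, adjusted p = 0.161), and HAS3 did so at 4 h only with the replicate block (1.19, adjusted p = 0.000628, against 0.440 without).

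In MKN1 without added EGF, afatinib lowered CD44 at 4 h, and HAS2 was low in all afatinib libraries. CD44 fell from 1809, 1567 and 1770 CPM to 1440, 1188 and 1390 CPM (log2FC -0.37, adjusted p = 0.0152), and trastuzumab+afatinib gave -0.40 (adjusted p = 0.00732). In edgeR without the block CD44 was the single changed member of 8 in both contrasts, where 3.68% and 3.95% of the genes were changed. Both calls were lost when only the compared groups were fitted (0.143 and 0.130), without replicate 1 (0.165 and 0.112), without replicate 3 (0.322 and 0.245) and with library size alone (0.0841 and 0.0533), and both passed with the replicate block. HAS2 had 0.297, 0.231 and 0.269 CPM after afatinib, below all 3 untreated libraries (log2FC -1.34, SE 0.41, adjusted p = 0.0602, 0.0220 with the replicate block and 0.0211 with DESeq2). With trastuzumab+afatinib HAS2 gave -1.26 (SE 0.41, adjusted p = 0.0817), and it was called with the replicate block (-1.23, 0.0317), with DESeq2 (-1.28, 0.0336) and without replicate 2 (-1.81, 0.0395). CEMIP gave -0.46 with afatinib (adjusted p = 0.345, and 0.000902 with the replicate block), lower in 3 of 3 replicates, and -0.53 with the combination (0.245, and 0.00018 with the block). At 24 h HYAL2 fell with trastuzumab+afatinib from 24.5, 27.4 and 26.9 CPM to 22.5, 20.5 and 19.7 CPM (-0.36, adjusted p = 0.00817, lost without replicate 3 at 0.134), the single changed member without the block where 26.8% of the genes were. The replicate block also called CD44 (-0.23, adjusted p = 0.000752) and HYAL2 (-0.23, adjusted p = 0.0245) with afatinib alone and CD44 with the combination (-0.20, adjusted p = 0.00292) at 24 h. In edgeR without the block no member was regulated by afatinib alone in MKN1 at 4 h or 24 h, where 0.681% and 4.19% of the genes were, whereas the block and DESeq2 regulated HAS2 at 4 h (-1.31 and -1.36). The study lists HAS2 among the genes that afatinib and trastuzumab+afatinib both regulated in MKN1 at 4 h. The fit without the block does not make that call, while the block and DESeq2 do.

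In MKN7, afatinib lowered HAS3 at both times and CD44 strongly at 24 h. HAS3 had 6.81, 5.84 and 8.63 CPM in untreated cells at 4 h and 2.92, 2.11 and 2.08 CPM after afatinib (log2FC -1.62, SE 0.29, adjusted p = 0.000331). At 24 h it had 3.25, 2.93 and 7.57 CPM untreated and 1.29, 0.822 and 0.906 CPM after afatinib (-2.20, SE 0.32, adjusted p = 7.42e-06). Replicate 3 was the high untreated library at 24 h, without which the log2FC was -1.58 and the call held, and the groups did not overlap at either time. CD44 fell from 1034, 1112 and 1247 CPM to 811, 879 and 803 CPM at 4 h (-0.48, adjusted p = 0.0134), a call that was lost without replicate 1 (0.0676) and without replicate 2 (0.0902). At 24 h CD44 fell from 577, 616 and 881 CPM to 188, 187 and 184 CPM (-1.90, SE 0.14, adjusted p = 2.47e-09), a 3.73-fold fall to a mean of 186 ± 2.23 CPM (SD, n = 3). At 4 h 22.2% of 18483 genes were changed and 3.4% regulated, and 3 of the 6 members tested were changed and 1 regulated. At 24 h 51.6% of the genes were changed and 13.5% regulated, and 3 of the 6 members tested were changed and 2 regulated.

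The hyaluronidases of MKN7 moved less. HYAL3 fell at 24 h from 6.28, 5.20 and 7.29 CPM to 3.27, 4.06 and 4.36 CPM (log2FC -0.69, SE 0.16, adjusted p = 0.0014). HYAL2 fell at 4 h from 29.3, 21.7 and 27.9 CPM to 21.7, 15.5 and 22.0 CPM (-0.45, adjusted p = 0.0423), with overlapping groups but lower in 3 of 3 replicates. That call was lost without replicate 1 (0.273), without replicate 3 (0.129), when only the compared groups were fitted (0.0701) and with library size alone (0.0773). CEMIP was 27.3, 28.1 and 13.0 CPM after afatinib at 4 h against 35.7, 36.5 and 23.6 CPM, and 37.6, 33.3 and 39.8 CPM at 24 h against 31.8, 31.3 and 25.1 CPM. Neither CEMIP contrast passed (-0.52 and 0.32, adjusted p = 0.174 and 0.317), but both did with the replicate block, as a fall at 4 h (adjusted p = 0.000458) and a rise at 24 h (0.0166). The block also called HYAL3 at 4 h (-0.41, adjusted p = 0.00277) and HYAL2 at 24 h (-0.35, adjusted p = 1.7e-05). HYAL1 had 1.11, 1.43 and 0.849 CPM at 24 h against 0.662, 1.06 and 0.694 CPM (0.48, adjusted p = 0.186, and 0.0450 with the replicate block).

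In NCI-N87, afatinib lowered HAS2 more than any other member in any contrast. Untreated cells had 12.2, 16.6 and 7.87 CPM at 4 h, and afatinib left 1.38, 2.06 and 1.60 CPM (log2FC -2.86, SE 0.23, adjusted p = 1.17e-08), a 7.26-fold fall. At 24 h untreated cells had 15, 14.9 and 15.9 CPM (770, 706 and 722 counts) and afatinib left 0.315, 0.284 and 0.208 CPM (18, 16 and 11 counts). The log2FC was -5.84 (SE 0.28, adjusted p = 2.81e-13), a 57.3-fold fall, and both HAS2 calls held in all alternatives run. The log2FC at 24 h minus that at 4 h was -2.98 (SE 0.36, adjusted p = 1.55e-06), in a test that changed 35.8% of the genes, and the like difference for CD44 in MKN7 was -1.42 (SE 0.19, adjusted p = 3.57e-05), where 18.0% were changed. The mean afatinib level at 24 h was 0.269 CPM, beside 0.242 CPM in untreated MKN1 and 0.0411 CPM in untreated MKN7 cells. At 4 h 18.2% of 19078 genes were changed and 3.24% regulated, and 3 of the 8 members were changed and 1 regulated. At 24 h 62.5% of the genes were changed and 29.6% regulated, and 6 of the 8 members were changed and 3 regulated.

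CEMIP fell together with HAS2. It had 38.9, 40.6 and 35.5 CPM in untreated NCI-N87 cells at 4 h and 19.4, 25.5 and 18.8 CPM after afatinib (log2FC -0.85, SE 0.18, adjusted p = 0.00161, lost without replicate 1 at 0.0620). At 24 h it fell from 59.0, 62.0 and 46.6 CPM to 8.94, 8.97 and 5.72 CPM (-2.86, SE 0.19, adjusted p = 3.9e-11), a 7.24-fold fall. The groups did not overlap at either time. HYAL2 fell from 21.3, 24.0 and 28.8 CPM to 15.3, 15.7 and 15.7 CPM at 4 h (-0.66, adjusted p = 0.000216) and from 30.6, 28.5 and 26.1 CPM to 17.6, 15.5 and 19.3 CPM at 24 h (-0.73, adjusted p = 8.61e-06). The study lists HYAL2 among the genes that afatinib regulated in NCI-N87 at 24 h, whereas here it was changed but not regulated. HYAL3 fell at 24 h from 4.90, 4.67 and 4.51 CPM to 3.08, 3.0 and 3.34 CPM (-0.61, adjusted p = 0.00181). At 4 h HYAL3 was called with the replicate block (-0.37, adjusted p = 0.00855, against 0.122 without it). HYAL1 was not changed at either time (0.09 and 0.21).

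The receptor CD44 fell in NCI-N87 only slightly, from 137, 130 and 139 CPM to 100, 95.8 and 112 CPM at 24 h (log2FC -0.43, SE 0.08, adjusted p = 0.000119). This call did not pass with scaling by library size alone (-0.18, adjusted p = 0.0774), which moved the median log2FC of all genes from 0.03 under TMM to 0.29 in this contrast. HAS1 was the single member that rose in this contrast. It had 0.233, 0.105 and 0.199 CPM (12, 5 and 9 counts) in untreated cells and 0.507, 0.533 and 0.397 CPM (29, 30 and 21 counts) after afatinib at 24 h (1.37, SE 0.46, adjusted p = 0.0140). The counts are few, and the call was lost without replicate 2 (1.04, adjusted p = 0.171). HAS3 gave -0.47 at 24 h (adjusted p = 0.117, and 0.0170 with the replicate block), with 2.33, 2.46 and 2.25 CPM untreated and 2.17, 1.69 and 1.36 CPM after afatinib.

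**Figure D4:**
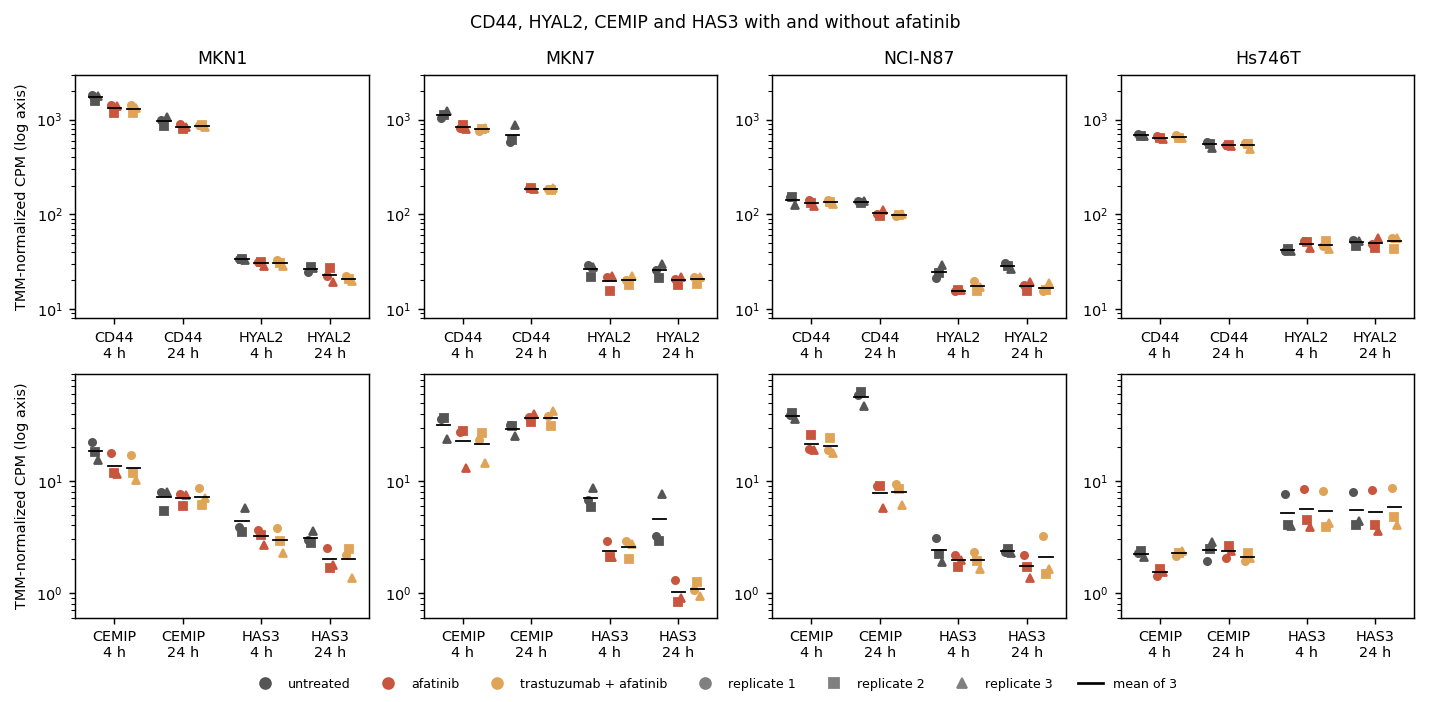
Levels of CD44, HYAL2, CEMIP and HAS3 in each library as CPM (log axis) for untreated, afatinib and trastuzumab+afatinib cells of 4 lines at 4 h and 24 h. CD44 in MKN7 drops to between 184 and 188 CPM with afatinib at 24 h and CEMIP in NCI-N87 to between 5.72 and 8.97 CPM, whereas the Hs746T points overlap for CD44.

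In Hs746T no member was changed by afatinib in the fit without the block. Over all genes edgeR called 0 at both times, with 1371 and 329 at an unadjusted p below 0.05. DESeq2 changed 0 of the 112 member pairs over all treatment contrasts of this line. HAS2 had 20.5, 8.90 and 8.66 CPM after afatinib at 4 h against 30.1, 14.1 and 11.6 CPM in untreated cells. Replicate 1 carried more HAS2 than the other two in every condition, and more HAS3 (7.60 CPM against 4.08 and 3.99 CPM in untreated cells at 4 h), so the groups overlapped although each replicate was lower after afatinib. The log2FC was -0.52 (SE 0.59, adjusted p = 0.904), and the replicate block gave -0.52 with an adjusted p of 0.000581, when 18.6% of 18667 genes were changed. At 24 h it gave -0.33 (adjusted p = 0.0323), with 0.712% changed. The block also called HYAL1 (-0.68), CEMIP (-0.51), HYAL2 (0.28) and HYAL3 (0.28) at 4 h, with adjusted p from 0.0132 to 0.0492, and none of these exceeded an absolute log2FC of 1.

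**Figure D5:**
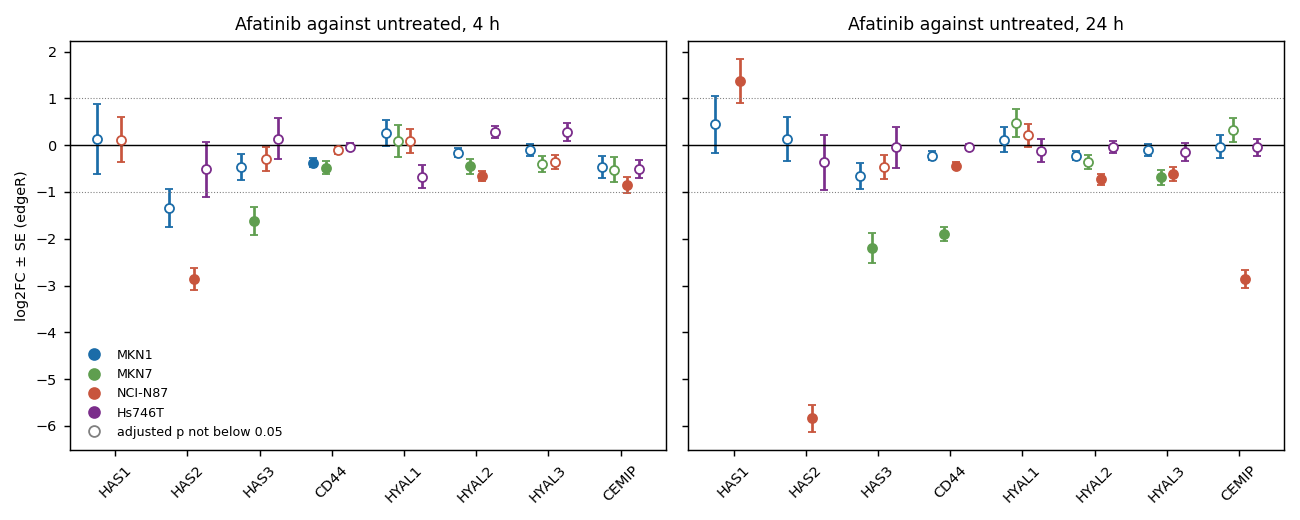
Effect of afatinib against untreated on each member as log2FC with its SE, at 4 h and 24 h in 4 lines; open symbols have an adjusted p that is not below 0.05, dotted lines mark a log2FC of 1 and -1, and members that were not tested have no symbol. HAS2 and CEMIP reach -5.84 and -2.86 in NCI-N87, HAS3 and CD44 reach -2.20 and -1.90 in MKN7, and all Hs746T symbols are open. Symbols follow the fit without the replicate block. With the block HAS2 was called in Hs746T at both times, and other members were called at 4 h.

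The afatinib effects differed between the lines when the difference itself was tested. The HAS2 effect at 24 h was lower in NCI-N87 than in Hs746T by a log2FC of 5.44 (SE 0.70, adjusted p = 2.18e-10) and than in MKN1 by 5.96 (SE 1.0, adjusted p = 8.35e-07). The CEMIP effect at 24 h was lower in NCI-N87 than in MKN1, MKN7 and Hs746T by 2.81, 3.15 and 2.79 (adjusted p = 1.08e-11, 7.3e-14 and 5.59e-11). The CD44 effect at 24 h was lower in MKN7 than in MKN1, NCI-N87 and Hs746T by 1.68, 1.49 and 1.86 (adjusted p = 5.9e-16, 5.14e-15 and 8.97e-19). These CD44 and CEMIP calls held in all alternatives run. Of 22832 genes tested at 24 h, 35.1% differed in the afatinib effect between NCI-N87 and Hs746T, 28.0% between MKN1 and NCI-N87, 21.4% between MKN7 and NCI-N87, 18.8% between MKN7 and Hs746T and 7.6% between MKN1 and MKN7.

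The HAS3 effect at 24 h was lower in MKN7 than in NCI-N87 by 1.75 (adjusted p = 0.0105) and than in Hs746T by 2.14 (adjusted p = 0.00122), and both calls were lost without replicate 3 (1.32 lower at 0.179 and 1.58 lower at 0.111), the first also without replicate 2 (1.90 lower at 0.0882). Against MKN1 it was lower by 1.55 (adjusted p = 0.0565, and 0.000288 with the replicate block). HAS2 in MKN7 had counts of 0 to 8 in all libraries and gives no fold. At 4 h the HAS3 effect differed between MKN7 and Hs746T by -1.69 (adjusted p = 0.0274) and the HAS2 effect between NCI-N87 and Hs746T by -2.31 (adjusted p = 0.00728), where 5.3% and 6.74% of the genes differed. The first was lost without replicate 2 (0.299) and without replicate 3 (0.214), and the second without replicate 2 (0.190) and without replicate 3 (0.0812).

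Trastuzumab alone changed 0 of 58 member pairs in edgeR, with 3 at an unadjusted p below 0.05 and 0 by DESeq2. Over all genes it changed 0.0% of the gene and contrast pairs, with 125 to 786 genes at an unadjusted p below 0.05. HAS2 in NCI-N87 stood at 7.73, 8.36 and 8.32 CPM after trastuzumab at 24 h, below all 3 untreated libraries at 15, 14.9 and 15.9 CPM. The log2FC was -0.92 (SE 0.21) with an adjusted p of 1 in the fit across the line, and 0.00489 with the replicate block, which called 8 genes in this contrast (0.0419%). At 4 h the trastuzumab libraries had 14.8, 15.4 and 12.1 CPM and overlapped the untreated ones.

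Adding trastuzumab to afatinib gave member levels close to those of afatinib alone. In NCI-N87 at 24 h the combination left 0.291, 0.357 and 0.254 CPM of HAS2 (log2FC -5.69 against untreated, SE 0.28, adjusted p = 3.22e-13) and 9.41, 8.53 and 6.08 CPM of CEMIP (-2.84, SE 0.19, adjusted p = 3.95e-11). HAS1 had 0.994, 0.630 and 0.332 CPM (58, 30 and 17 counts), above all untreated libraries (1.82, SE 0.46, adjusted p = 0.00151). In MKN7 at 24 h it left 1.06, 1.24 and 0.946 CPM of HAS3 (-2.08, and -1.44 without replicate 3) and 184, 181 and 191 CPM of CD44 (-1.90). With the combination 6 of 8 members were changed and 3 regulated in NCI-N87 at 24 h (64.7% and 31.6% of all genes), and 3 of 6 were changed and 2 regulated in MKN7 (51.9% and 13.9%). Tested directly against afatinib alone, 0 of 58 member pairs were changed in edgeR, with 1 at an unadjusted p below 0.05 and 0 by DESeq2. Over all genes 0.0% were changed, with 94 to 202 at an unadjusted p below 0.05.

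Some members differed between 24 h and 4 h without any treatment. Medium was changed shortly before treatment, so time in culture and time since the medium change cannot be told apart. In untreated MKN1, HAS2 was lower at 24 h than at 4 h by a log2FC of 1.5 (SE 0.42, adjusted p = 0.00578), CEMIP by 1.41 (SE 0.24, adjusted p = 2.15e-05), CD44 by 0.84 (SE 0.09, adjusted p = 1.9e-08) and HYAL2 by 0.36 (adjusted p = 0.00566), in 3 of 3 replicates each, when 34.1% of the genes were changed. The HAS2 call was lost without replicate 1 (0.102) and without replicate 3 (0.0958), and the HYAL2 call without replicate 1 (0.147) and with library size alone (0.0603). CD44 was also lower at 24 h in MKN7 (-0.74, adjusted p = 0.00125, lost without replicate 1 at 0.0529 and without replicate 2 at 0.0635), where 16.4% of the genes were changed. In Hs746T it gave -0.29 (adjusted p = 0.0358), which was lost without replicate 1 (0.0797), replicate 2 (0.322) and replicate 3 (0.720), when only the compared groups were fitted (0.321), with library size alone (0.0897) and with no filter (0.183), and 1.48% of the genes were changed.

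Other genes of hyaluronan metabolism were followed as a list of 39 genes, of which 24 to 30 were tested per line. Their calls are from the fit without the block and, unlike those of the members, were not compared across the alternatives. In MKN1, EGF changed 2 up and 2 down at 4 h (4.37% up and 2.45% down among all genes) and 10 up and 3 down at 24 h (17.3% and 18.5%), with a median log2FC of 0.13 at 24 h against -0.05 over all genes. Of 7 enzymes that make the UDP-sugar precursors, 4 rose at 24 h, among them UAP1, which forms UDP-N-acetylglucosamine (1.0, adjusted p = 6.02e-11), and GFPT2, which feeds glucosamine into that route (1.05, adjusted p = 2.02e-08). VCAN, a proteoglycan that binds hyaluronan, rose by 2.04 (SE 0.24, adjusted p = 4.64e-08), and the splicing regulator ESRP1 fell by 1.36 (SE 0.45, adjusted p = 0.0181). HAS2-AS1 rose by 1.69 (SE 0.53, adjusted p = 0.0118), but its exons overlap HAS2 on the other strand, so its reads could not be separated with certainty. With afatinib at 24 h VCAN fell by 1.99 (adjusted p = 5.68e-07) in MKN1.

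In NCI-N87, afatinib changed 2 up and 5 down of the list at 4 h (9.06% up and 9.1% down among all genes) and 4 up and 16 down at 24 h (31.5% and 31.0%), with a median of -0.49 at 24 h against 0.03 over all genes. Of the 7 precursor enzymes 6 fell at 24 h, with GNPNAT1 at -1.56 (SE 0.11, adjusted p = 1.54e-10) and UAP1 at -0.94 (SE 0.08, adjusted p = 6.73e-10). Of 6 genes that link CD44 to actin or regulate its splicing, 4 fell, among them the linkers MSN (-1.43, adjusted p = 5.89e-11) and EZR (-1.14, adjusted p = 1.12e-08). The rises were in matrix partners, with ITIH3 at 2.50 (SE 0.79, adjusted p = 0.00932) and ITIH5 at 1.99 (SE 0.53, adjusted p = 0.00269), of the family whose heavy chains are bound to hyaluronan. HYAL4 fell by 2.34 (SE 0.60, adjusted p = 0.00189). In MKN7, afatinib changed 1 up and 6 down at 4 h (10.1% and 12.1%) and 3 up and 8 down at 24 h (26.6% and 25.0%), with a median of -0.03 at 24 h against 0.04 over all genes. There GFPT2 fell by 1.28 at both times (adjusted p = 0.00734 and 0.00303), UAP1 by 0.97 at 24 h (adjusted p = 1.65e-06) and VCAN by 1.11 at 24 h (adjusted p = 0.000684).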

How the data were processed

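Polyadenylated RNA of 4 gastric cancer cell lines was sequenced with a strand-keeping kit, 3 libraries for each of 44 conditions. The deposited files hold raw counts per Ensembl identifier, 1 file per library, made by the authors. The submitters' processing notes name Trim Galore, STAR and hg38, while the counter, its annotation, its strand setting and the versions are not given in the sources used here. Identifiers were named with GENCODE release 29, in which 8404 of 65217 identifiers (0.0422% of the counts) were not found. All 37 mitochondrial identifiers were at 0 counts.

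Within each line, genes were filtered with filterByExpr (minimum count 10, minimum total 15), scaled with TMM and tested with edgeR 4.0.16 (R 4.3.3) by the quasi-likelihood test, with Benjamini-Hochberg adjustment over all genes tested. Differences between lines, and between effects in lines, came from 1 fit over all libraries. Following the study's criteria, regulated genes had an absolute log2FC above 1 at an adjusted p below 0.05. Total counts of 25832557 to 69434151 per library set the precision, and floors cover counting error only. Groups came from the sample labels. The design text calls the replicates biological. No pair of libraries held identical values.

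Alternatives were no filter, a replicate block, leaving out each replicate number in turn, DESeq2 1.42.0, a fit of the compared groups only and library size alone as the scaling. Same-numbered libraries deviated together (mean correlation 0.382, lowest -0.0183, over 324 pairs, against -0.187 for other numbers over 648 pairs). In every comparison of a treatment with untreated cells each pair was above 0.1, so the numbers were taken to pair the samples, whereas untreated Hs746T cells at 4 h and 24 h (replicate 2 at 0.0634) were not taken as paired. The main fit was planned without a block and did not use this pairing. With the block, 111 member and contrast pairs were changed over all treatment contrasts, in place of 58. Values were tabulated with Python 3.11.15. The edgeR fit was also run on simulated counts for the contrast of afatinib against untreated in NCI-N87 at 24 h. The simulated libraries were independent, so that run does not cover the replicate pairing, and no result here rests on it. The named genes were the 8 members and, per contrast, at most 4 regulated genes of the pathway list; UAP1, GNPNAT1, MSN and EZR were named after their values were seen. The members and lists were chosen with earlier results of these data known.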

Additional observations from a re-analysis of the deposited data

Results flagged for a closer look

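Effects that differed between times or lines by a test of the difference itself, with an absolute log2FC difference above 1, are listed here with their values, and no explanation was tested. Within a line, the afatinib effect at 24 h minus that at 4 h was -2.98 (SE 0.36, adjusted p = 1.55e-06) for HAS2 and -2.01 (SE 0.26, adjusted p = 3.31e-06) for CEMIP in NCI-N87, and -1.42 (SE 0.19, adjusted p = 3.57e-05) for CD44 in MKN7.

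Between lines at 24 h, the HAS2 effect of afatinib in MKN1 minus that in NCI-N87 was 5.96 (SE 1.0) and in NCI-N87 minus Hs746T -5.44 (SE 0.70). The CEMIP effect was 2.81 (SE 0.32) for MKN1 minus NCI-N87, 3.15 (SE 0.32) for MKN7 minus NCI-N87 and -2.79 (SE 0.35) for NCI-N87 minus Hs746T. The CD44 effect was 1.68 (SE 0.14) for MKN1 minus MKN7, -1.49 (SE 0.14) for MKN7 minus NCI-N87 and -1.86 (SE 0.14) for MKN7 minus Hs746T. The HAS3 effect was -1.75 (SE 0.54) for MKN7 minus NCI-N87 and -2.14 (SE 0.52) for MKN7 minus Hs746T.

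At 4 h, the afatinib effect in MKN7 minus that in Hs746T was -1.69 (SE 0.50, adjusted p = 0.0274) for HAS3, and in NCI-N87 minus Hs746T -2.31 (SE 0.61, adjusted p = 0.00728) for HAS2. The EGF effect on HAS2 in MKN1 minus that in Hs746T was 3.25 (SE 0.66, adjusted p = 0.00108). In Hs746T the HAS2 level of replicate 1 stood above that of the other two in every condition.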

How the results depend on the processing

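Of 92 member results (changed pairs, and 4 regulated only under an alternative, line comparisons of untreated cells left out), 48 kept their side of the threshold in each alternative run and 0 reversed. The number of regulated member and contrast pairs in MKN1 was 5, and became 2 when only the compared groups were fitted, 9 with DESeq2, 9 with the replicate block and 3 to 5 when 1 replicate number was left out. For untreated cells at 24 h against 4 h the count was 2, and 1 to 2 with a replicate left out. For the difference of the EGF effect between MKN1 and Hs746T it was 1, and became 0 when only the compared groups were fitted, 3 with the replicate block and 0 to 2 with a replicate left out (2 without replicate 1, 0 without replicate 2). The counts of 13 in NCI-N87, 0 in Hs746T and 9 in MKN7 stayed within 1.5 times. The replicate block ended no call of the 92 results and added 4 among them, all of HAS2 in MKN1, while over all treatment contrasts it raised the number of changed member and contrast pairs from 58 to 111. Scaling by library size alone ended 17 calls and moved the median log2FC of all genes from 0.03 to 0.29 for afatinib at 24 h in NCI-N87, and from -0.05 to -0.24 for EGF at 24 h in MKN1. The cause of these changes was not tested. Depth limits HAS1, with at most 58 counts in a library, and HAS2 in MKN7, with at most 8.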

Other observations

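The genes whose level followed each member most closely were ranked by Pearson's r over 44 condition means, centred within line and time, among 14627 genes with a mean of at least 1 CPM. The values are a description across conditions that share untreated libraries and carry no p. For HAS2 they were LUCAT1 (r = 0.967), RCOR1 (0.939) and SMAD3 (0.939), and over the single libraries r was 0.866, 0.814 and 0.808. For HAS3 they were HIVEP3 (0.942), HPCAL1 (0.936) and GFPT2 (0.930), the last with r = 0.630 over single libraries. For CD44 they were NCEH1 (0.965), SIPA1L1 (0.960) and SLC37A2 (0.939), with 0.837, 0.811 and 0.799 over single libraries. For CEMIP they were WSB2 (0.968), ARCN1 (0.951) and ATP2A2 (0.950), with 0.751, 0.826 and 0.853. For HYAL2 they were PTRH2 (0.970), ALKBH2 (0.967) and TP53RK (0.967), with 0.807, 0.878 and 0.899. For HYAL3 they were HHEX (0.931), SRD5A1 (0.923) and COMMD5 (0.921), with 0.624, 0.672 and 0.817. Among the members, HAS2 and CEMIP gave r = 0.907, HAS3 and CD44 r = 0.880 and HYAL2 and HYAL3 r = 0.869. Over single libraries these were 0.760, 0.758 and 0.751. CEMIP ranked 33 for HAS2 and HAS2 ranked 90 for CEMIP. CD44 ranked 37 for HAS3 and HAS3 ranked 27 for CD44.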
